A study of Homo sapiens with 6 samples.

Results

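Hemidesmosomes are the junctions that fix the basal side of a squamous cell to the basement membrane. The genes described here are the 9 hemidesmosome and laminin-332 genes ITGA6, ITGB4, ITGA3, CD151, COL17A1, DST, PLEC, LAMA3 and LAMB3, found in the count table by Ensembl identifier, 9 of 57820 rows. They were chosen by the function of their proteins, with earlier results of these data known. Their transcripts were counted in total RNA from Cal27 cells, an established human oral cancer line of squamous origin. There were 3 groups, each of 2 biological replicates per the series' design. The CRNN group overexpressed cornulin, a protein of differentiating squamous epithelium, from a lentivirus, and the GFP group carried a lentiviral GFP vector. Both were transduced with polybrene at 8 µg/ml and harvested after 48 hours. The untreated group was unmodified Cal27, for which the labels give neither polybrene nor a harvest time, so a comparison with it cannot tell these apart from the transduction. Nothing in the labels describes selection or sorting of the transduced cells, and all libraries come from 1 cell line.

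In a hemidesmosome the integrin of the α6 (ITGA6) and β4 (ITGB4) chains and the transmembrane collagen XVII (COL17A1) bind laminin-332 outside the cell. Inside the cell the plakins plectin (PLEC) and BP230 (a product of DST) tie them to keratin filaments. LAMA3 encodes the α3 chain and LAMB3 the β3 chain of laminin-332. The α3 integrin (ITGA3) pairs with β1 and is another laminin-332 receptor, and the tetraspanin CD151 binds both laminin-binding integrins. Loss of most of these proteins in people causes blistering of the skin, and in oral carcinoma the same proteins are studied for their part in invasion.

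None of the 9 genes rose or fell in any of the 3 comparisons. A gene was called when its p in edgeR's quasi-likelihood test, adjusted by Benjamini and Hochberg over all 16396 tested genes, was under 0.05. That rule called 0.0183% of genes for CRNN against GFP, 0.0061% for CRNN against untreated and 0% for GFP against untreated, so 0 of 9 is what that background gives. All 9 genes passed the filter on low counts. At an unadjusted p under 0.05 by edgeR, 2 of 9 were lower in CRNN than in GFP (ITGB4 and PLEC), beside 2.9% of all genes, and 0 of 9 were higher, beside 1.49%. Together these were 2 of 9 beside 4.39% of all genes. No member reached that level for CRNN against untreated, where the background was 1.52% higher, 2.96% lower and 4.48% in either direction. For GFP against untreated 1 of 9 did, ITGB4, which was higher in GFP, beside 4.03% of all genes in that direction, 2.9% in the other and 6.93% in either. Libraries of the 2 groups did not overlap for 4 of 9 members between CRNN and GFP (38.1% of all genes), for 1 of 9 between CRNN and untreated (37.1%) and for 1 of 9 between GFP and untreated (31.6%). Higher and lower, the background was 19.4% and 18.7%, then 18.7% and 18.4%, then 16.2% and 15.5%. DESeq2 called 1 member, ITGB4 for GFP against untreated (adjusted p = 0.0213), where it called 29 genes in all.

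The level of CRNN itself, in CPM (counts scaled to library size), followed the labels: 964 and 1028 with the CRNN construct, but 3.06 and 2.55 in the GFP replicates, and 3.51 and 2.08 without virus. Library totals ran from 11817105 counts in GFP replicate 2 to 28041227 in untreated replicate 1, and each member had at least 589 counts in every library. The 10 keratinocyte markers, KRT5, TP63 and CDH1 among them, were all above 1 CPM in every library. Their summed levels were 5045 and 5796 CPM in CRNN, 3368 and 4425 in GFP, with 6488 and 5888 in untreated cells. The untreated sums differed in make-up. Untreated replicate 1 had KRT17 at 1771 CPM against 67.6 to 182 elsewhere, and SFN at 1017 against 280 to 367. Its KRT5 was 2372 CPM against 4270 in untreated replicate 2. Summed levels of 9 fibroblast markers lay between 4.04 and 9.5 CPM and those of 9 immune markers between 7.14 and 11.5 CPM. The 6 endothelial markers summed to between 9.07 and 14.6 CPM except in untreated replicate 1, at 53.7, nearly all of it CDH5 at 49.9. VWF was also highest there, at 3.06 CPM against 0.727 to 1.60 elsewhere, while KDR had at most 1 count and TEK at most 2 in any library. RNA was measured in bulk, so fewer cells of a type and less RNA per cell cannot be told apart. The part of these marker differences in the results was not tested. The replicate libraries of the CRNN group lay close together for these genes, and those of the other groups did not. The median SD between replicates over the members was 0.15 log2 CPM in CRNN, 0.52 in GFP and 0.56 in untreated cells, beside 0.14, 0.33 and 0.3 over all tested genes. Untreated replicate 1 was the highest or lowest of the 6 libraries for 6 of 9 members (53.5% of all genes), GFP replicate 1 for 5 (48.6%) and GFP replicate 2 for 3 (40.6%). CRNN replicate 1 was so for 0 (13.2%), CRNN replicate 2 for 2 (28%) and untreated replicate 2 for 2 (16.1%).

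**Figure D1:**
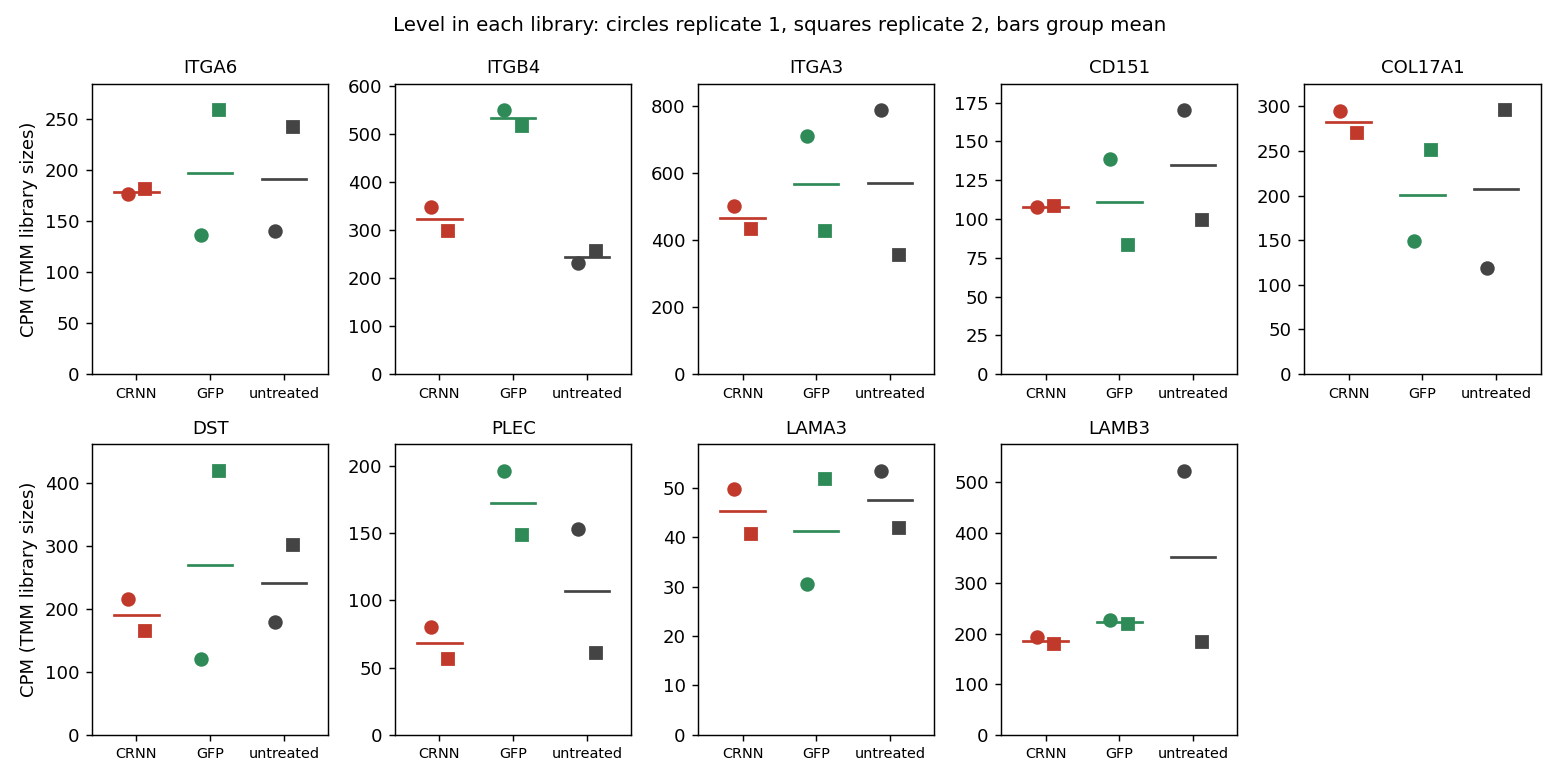
Level of each gene in each of the 6 libraries, in CPM with TMM library sizes (vertical axis from 0), for the CRNN, GFP and untreated groups, with a bar at the group mean. ITGB4 separates all 3 groups, while for ITGA6, ITGA3, CD151 and COL17A1 both replicates of CRNN lie within the range of the 2 untreated libraries.

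The β4 chain is found only with α6 and carries the long cytoplasmic tail that organises the hemidesmosome. ITGB4 (ENSG00000132470.9; GRCh38 chromosome 17, 75721328 to 75757818, plus strand) had 348 and 298 CPM in CRNN, 549.7 and 517 in GFP, with 232 and 255 in untreated cells. Both GFP libraries were above both CRNN libraries, and both CRNN libraries were above both untreated libraries. Of all tested genes, 1.81% had that order with no overlap, and 9.63% had both GFP libraries above the other 4. GFP exceeded untreated cells by a log2 fold change of 1.13 (SE 0.27, edgeR adjusted p = 0.711, n = 2 per group) and CRNN by 0.72 (fold change of CRNN against GFP -0.72, SE 0.26, adjusted p = 0.999). CRNN against untreated cells gave 0.41 (SE 0.26, adjusted p = 0.989). Leaving out any one library kept all 3 directions, with ranges of 1.04 to 1.19, -0.81 to -0.61 and 0.31 to 0.50. ITGB4 has a GC content of 64% over its exons, the 95.8th percentile of tested genes, and correction for GC and length left 0.99 for GFP against untreated and -0.59 for CRNN against GFP.

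Its partner did not follow. ITGA6 (ENSG00000091409.10; chromosome 2, 172427354 to 172506459, plus strand) had 177 and 181 CPM in CRNN, 136 and 259 in GFP, with 140.4 and 242 in untreated cells. The CRNN libraries lay between the replicates of each other group. The log2 fold changes were -0.14 (SE 0.38) for CRNN against GFP, -0.10 (SE 0.38) against untreated cells and 0.05 (SE 0.38) for GFP against untreated cells, each within its error. The ITGA6 to ITGB4 ratio within a library was 0.507 and 0.607 in CRNN, 0.248 and 0.5 in GFP, with 0.606 and 0.949 in untreated cells. Both GFP libraries had a lower ratio than the other 4, and with the GC and length trend removed the log2 ratios were -0.93 and -0.90 in CRNN, -1.47 and -1.23 in GFP, with -0.79 and -0.19 in untreated cells. A ratio of 2 libraries against 2 cannot go below an exact two-sided permutation p of 0.333, so the ratios are given as values.

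ITGA3 (ENSG00000005884.13; chromosome 17, 50055968 to 50090481, plus strand) encodes the α chain of the other laminin-332 integrin. It had 501 and 433 CPM in CRNN, 711 and 426 in GFP, with 788 and 355 in untreated cells. Replicate 1 of GFP and of untreated cells was high, replicate 2 of both was low, and the groups overlapped. Its log2 fold changes were -0.28 (SE 0.42), -0.29 (SE 0.42) and -0.01 (SE 0.41) for CRNN over GFP, CRNN over untreated cells and GFP over untreated cells. CD151 (ENSG00000177697.13; chromosome 11, 832887 to 839831, plus strand) had 107 and 109 CPM in CRNN, 139 and 83.0 in GFP, with 170.2 and 99.6 in untreated cells. The same libraries were high and low as for ITGA3. Its log2 fold changes were -0.04 (SE 0.35), -0.32 (SE 0.35) and -0.28 (SE 0.35) in the same order. While ITGA3 ranged over 2.22-fold between libraries and CD151 over 2.05-fold, the ITGA3 to CD151 ratio stayed between 3.56 and 5.13, with an SD of 0.21 on the log2 scale over 6 libraries. CD151 shares 257 exon bases with POLR2L on the opposite strand, and the strand setting of the counting is not given, so reads from that stretch may be split or dropped.

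COL17A1 (ENSG00000065618.12; chromosome 10, 104031286 to 104085880, minus strand) ran the opposite way to ITGA3 over the libraries. It had 294 and 270.3 CPM in CRNN, 149.7 and 251 in GFP, with 118 and 296 in untreated cells. Both CRNN libraries were above both GFP libraries, as for 19.4% of all tested genes, and the untreated pair spanned all 4 of these. The log2 fold changes were 0.49 (SE 0.44) over GFP and 0.45 (SE 0.44) over untreated cells. The value over GFP was 0.18 without GFP replicate 1 and 0.94 without GFP replicate 2, and that over untreated cells was -0.06 without untreated replicate 1 and 1.26 without untreated replicate 2. The COL17A1 to ITGB4 ratio was 0.845 and 0.906 in CRNN, 0.272 and 0.486 in GFP, with 0.511 and 1.16 in untreated cells.

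The plakins of the inner plaque are the longest transcripts here and stand at opposite ends of base composition. PLEC (ENSG00000178209.10; chromosome 8, 143915153 to 143976734, minus strand) has a GC content of 67.2% over its exons, the 99th percentile of tested genes, and 16992 exon bases. DST (ENSG00000151914.13; chromosome 6, 56457987 to 56954830, minus strand) has 39.7%, the 13.9th percentile, and 48142 exon bases over all its forms, the 99.9th percentile of length. Across tested genes, the level in GFP replicate 1 relative to the mean of the 6 libraries followed GC content with a Spearman rho of 0.482, and in GFP replicate 2 with -0.311 (across genes, which are not independent replicates). The trend fitted from GC and length alone put PLEC at 0.39 log2 CPM in GFP replicate 1 and -0.29 in CRNN replicate 2, and put DST at 0.32 in GFP replicate 2 and -0.17 in CRNN replicate 2.

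PLEC had 80.2 and 56.7 CPM in CRNN, 196 and 148 in GFP, with 153 and 60.8 in untreated cells. Both GFP libraries exceeded both CRNN libraries, as for 18.7% of all tested genes, and the untreated pair ran from within the CRNN range to within the GFP range. The log2 fold change of CRNN against GFP was -1.33 (SE 0.43, unadjusted p = 0.0132, edgeR adjusted p = 0.999, n = 2 per group), the largest in size of the 27 values of these genes, and it was -1.01 (SE 0.36, adjusted p = 0.886) after the correction for GC and length. With 1 library left out at a time it lay between -1.57 and -1.10. Against untreated cells CRNN had -0.64 (SE 0.43), or 0.17 without untreated replicate 1, and GFP had 0.69 (SE 0.43), or 0.40 after the correction, 0.16 without untreated replicate 2 and 1.48 without untreated replicate 1. The 13 mRNAs of the mitochondrial genome, a gauge of RNA quality, summed to 10460 and 6194 CPM in CRNN, 15100 and 11930 in GFP, with 10120 and 12350 in untreated cells. In the sum GFP and untreated cells overlapped. Gene by gene, all 13 had a negative fold change for CRNN against GFP (median -1.05). Of these, 9 had an unadjusted p under 0.05 by edgeR, beside 2.9% of all genes. All 13 had a positive one for GFP against untreated cells (median 0.70), 9 of them with no overlap between libraries, beside 16.2% of all genes. ITGB4 and PLEC had the same signs in these 2 comparisons. For CRNN against untreated cells 12 of the 13 were negative (median -0.41), while ITGB4 had 0.41 and PLEC -0.64. The part of the mitochondrial difference in the values of ITGB4 and PLEC was not tested.

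DST had 215 and 165 CPM in CRNN, 120.5 and 419.7 in GFP, with 180.1 and 301 in untreated cells. The GFP libraries were the lowest and the highest of the 6. The log2 fold change of CRNN against GFP was -0.51 (SE 0.53), or -0.21 (SE 0.44) after the correction for GC and length, and it was -1.13 without GFP replicate 1 and 0.68 without GFP replicate 2. Against untreated cells CRNN had -0.34 (SE 0.52) and GFP 0.17 (SE 0.52). The DST to PLEC ratio was 2.68 and 2.91 in CRNN, 0.614 and 2.83 in GFP, with 1.18 and 4.96 in untreated cells. Its SD over the 6 libraries was 1.09 on the log2 scale, and 0.87 after the correction. The corrected log2 ratios were 1.47 and 1.42 in CRNN against -0.23 and 1.21 in GFP, which did not overlap, and 0.29 and 2.15 in untreated cells, which overlapped both.

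The laminin-332 chains LAMA3 and LAMB3 differed in pattern over the libraries. LAMB3 (ENSG00000196878.8; chromosome 1, 209614870 to 209652425, minus strand) had 194 and 179.7 CPM in CRNN, 228 and 220.1 in GFP, with 523 and 183 in untreated cells. Untreated replicate 1 stood far above the other 5 libraries, which lay within a narrow band, and within that band both GFP libraries were above both CRNN libraries. The log2 fold change of CRNN against untreated was -0.92 (SE 0.44, edgeR adjusted p = 0.989), 0.03 without untreated replicate 1, and -1.48 (adjusted p = 0.0231) without untreated replicate 2, where the test called 957 genes. CRNN against GFP gave -0.26 (SE 0.43) and GFP against untreated -0.65 (SE 0.44), or 0.27 without untreated replicate 1. LAMA3 (ENSG00000053747.11; chromosome 18, 23689453 to 23956222, plus strand) had 49.7 and 40.7 CPM in CRNN, 30.6 and 51.7 in GFP, with 53.4 and 41.8 in untreated cells. All 3 groups overlapped, and untreated replicate 1 was the highest library by a small margin. Its log2 fold changes were 0.14 (SE 0.32), -0.07 (SE 0.32) and -0.21 (SE 0.32) for CRNN over GFP, CRNN over untreated cells and GFP over untreated cells.

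The LAMA3 to LAMB3 ratio was 0.257 and 0.226 in CRNN, 0.134 and 0.235 in GFP, with 0.102 and 0.229 in untreated cells, so the groups overlapped. With the GC and length trend removed, the log2 ratios were -1.94 and -2.09 in CRNN, -2.72 and -2.36 in GFP, with -3.30 and -2.10 in untreated cells. CRNN then overlapped neither GFP nor untreated cells, though CRNN and untreated replicate 2 nearly touched.

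**Figure D2:**
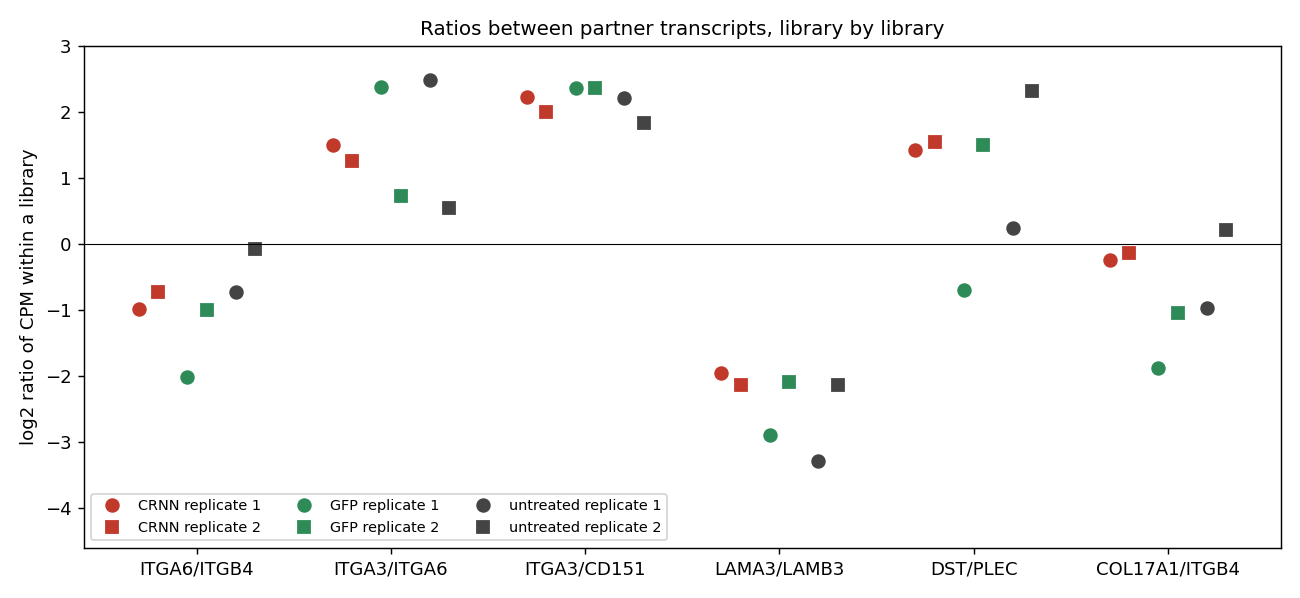
Log2 ratio of CPM between partner transcripts within each library (vertical axis), for 6 pairs, with 1 point for each of the 6 libraries. ITGA6/ITGB4 is lowest in the GFP libraries, at -2.01 in replicate 1, while ITGA3/ITGA6 and DST/PLEC lie far apart between the replicates of GFP and of untreated cells and close together in CRNN.

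Sequence before the start site is shown for the laminin chains that parted, LAMA3 and LAMB3, and for COL17A1 and ITGA6, which had r = 0.76 over the libraries. Each is the 250 bases before a RefSeq start site (GRCh38.p14), on the gene's own strand and outside the gene's annotated exons, in lower case with motif matches in capitals. The motifs are the AP-1 site TGANTCA and the GC box GGGCGG, on both strands. RefSeq entries were matched for 5 of the 9 genes, with 10 start sites in all.
LAMA3, chr18:23872770-23873019, plus strand: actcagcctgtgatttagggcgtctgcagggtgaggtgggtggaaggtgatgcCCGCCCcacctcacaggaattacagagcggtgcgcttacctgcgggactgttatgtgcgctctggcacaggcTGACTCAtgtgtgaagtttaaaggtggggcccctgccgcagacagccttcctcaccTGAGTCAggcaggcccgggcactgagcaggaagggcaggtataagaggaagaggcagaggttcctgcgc
LAMB3, chr1:209652426-209652675, minus strand: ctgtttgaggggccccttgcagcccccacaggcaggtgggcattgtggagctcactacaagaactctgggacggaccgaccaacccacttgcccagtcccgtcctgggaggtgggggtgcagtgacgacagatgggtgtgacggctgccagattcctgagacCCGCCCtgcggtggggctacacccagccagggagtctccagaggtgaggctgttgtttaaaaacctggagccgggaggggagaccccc
COL17A1, chr10:104085881-104086130, minus strand: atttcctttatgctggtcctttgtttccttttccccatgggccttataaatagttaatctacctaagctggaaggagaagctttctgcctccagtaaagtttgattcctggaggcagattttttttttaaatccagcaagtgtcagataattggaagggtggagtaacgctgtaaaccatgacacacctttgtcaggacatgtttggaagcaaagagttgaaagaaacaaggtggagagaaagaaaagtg
ITGA6, chr2:172427086-172427335, plus strand: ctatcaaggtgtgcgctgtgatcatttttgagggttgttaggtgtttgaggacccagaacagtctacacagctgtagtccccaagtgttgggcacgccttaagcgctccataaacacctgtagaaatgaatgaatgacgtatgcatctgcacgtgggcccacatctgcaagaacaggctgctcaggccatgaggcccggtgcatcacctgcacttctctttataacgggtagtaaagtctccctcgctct

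The LAMA3 window, at the internal start of the gene's shorter form, holds 2 AP-1 matches, which begin at positions -125 and -69 from the start site, and 1 GC box match. The LAMB3 window shown holds 1 GC box and no AP-1 match, and another LAMB3 start site further into the gene has 1 AP-1 match at position -67. The COL17A1 and ITGA6 windows shown hold neither motif, while another ITGA6 start site, whose window runs into an exon, has 3 GC boxes. DST, which had a higher r with ITGA6 (0.92), is not shown. Its window outside the gene's exons holds 4 GC boxes and no AP-1 match, and its windows that run into exons hold neither motif. Of 35116 such windows, 6.57% hold an AP-1 match and 42.6% a GC box. These matches describe letters and say nothing of binding in these cells.

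Per kilobase of exon, the transcripts fell into 2 tiers over the 6 libraries. LAMB3 (mean 54.8 CPM per kb, SD 28.6), ITGA3 (54.6, SD 17.7) and ITGB4 (54.2, SD 20.0) led, followed by COL17A1 (32.9, SD 11), CD151 (30.3, SD 8.05) and ITGA6 (28.3, SD 7.65). Neighbours in that order overlapped in range. PLEC (6.82, SD 3.4), DST (4.85, SD 2.27) and LAMA3 (3.08, SD 0.597) were lower, and no library of PLEC reached the lowest library of ITGA6. The exon length takes in every annotated form. With the longest transcript in its place ITGA3 came first at 97.8 CPM per kb and DST passed PLEC, at 9.45 against 7.6. The gap between tiers and the last place of LAMA3 were as before, but for these lengths only. A shorter form of DST or LAMA3 would give a higher value per kb, and the forms present in these cells were not measured.

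Over the 6 libraries ITGA3 and CD151 varied against ITGA6 and COL17A1, and the other members followed them to differing degrees. ITGA3 varied with CD151 (Pearson r of log2 CPM = 0.89, 6 libraries) and against ITGA6 (r = -0.90) and COL17A1 (r = -0.93), while ITGA6 went with DST (r = 0.92). LAMB3 went with ITGA3 (r = 0.77) and against COL17A1 (r = -0.86). PLEC had 0.74 with ITGA3, 0.42 with CD151 and 0.57 with LAMB3, and -0.77 with COL17A1 and -0.43 with ITGA6. DST had only -0.19 with PLEC and -0.20 with LAMB3. ITGB4 had r between -0.40 and 0.56 with the other 8 members, the highest with PLEC. In 7 of 9 members replicate 1 lay on the same side of replicate 2 in the GFP pair and in the untreated pair, beside 54.2% of all tested genes. For ITGA3 these differences were 0.74 log2 CPM in GFP and 1.15 in untreated cells, for COL17A1 -0.75 and -1.32, and for DST -1.80 and -0.74. All 9 members had CRNN replicates within 1.5-fold of each other, against 3 in GFP and 2 in untreated cells. CRNN replicates were also closest over all tested genes, with a median SD of 0.14 log2 CPM against 0.33 in GFP and 0.3 in untreated cells. The share of all genes within 1.5-fold was not computed. The libraries differ in depth, from 11817105 to 28041227 counts. They also differ in how levels follow GC content across genes, with rho from -0.311 in GFP replicate 2 to 0.482 in GFP replicate 1. ITGA3, CD151, PLEC and LAMB3 have GC contents of 57.4% to 67.2% against 39.7% to 53.5% for DST, ITGA6 and COL17A1. LAMA3 has 47.8%. ITGB4, at 64%, lies within the first range, but had r = 0.07 with ITGA3, -0.33 with CD151, -0.34 with LAMB3 and 0.56 with PLEC. The trend from GC and length put ITGA3 at 0.22 and -0.02 log2 CPM in the GFP replicates and at -0.05 and -0.08 in the untreated replicates. For COL17A1 it gave 0.12 and -0.03 in GFP, then -0.03 and -0.06 in untreated cells, and for DST -0.08 and 0.32, then -0.08 and 0.01. The part of base composition in these patterns was not tested.

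**Figure D3:**
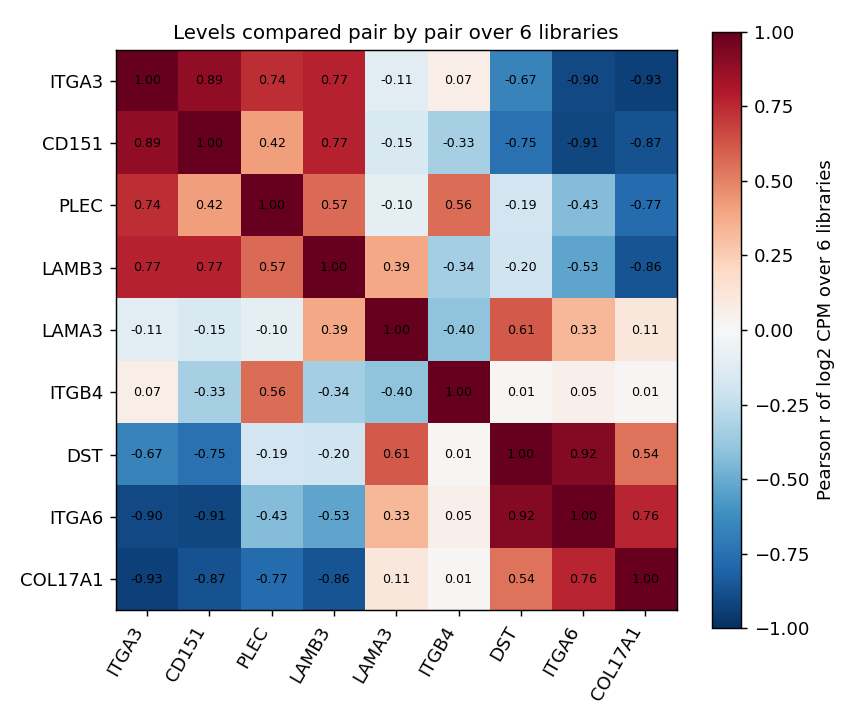
Pearson r of log2 CPM over the 6 libraries for each pair of the 9 genes, coloured from -1 (blue) to 1 (red). ITGA3 and CD151 have values of -0.87 to -0.93 with ITGA6 and COL17A1, while PLEC and LAMB3 are only weakly negative with DST, at -0.19 and -0.20.

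The genes whose pattern was most like the mean of the 9 members over the 6 libraries, out of 11685 whose log2 CPM averaged 1 or more, were SLC22A23 (r = 0.986), DOCK1 (0.981), ABHD2 (0.979), WNT4 (0.968) and MYORG (0.967). The member mean itself moved little, from -0.22 in CRNN replicate 2 to 0.24 in GFP replicate 2. For PLEC the 3 most alike were SKI (r = 0.994), TLN1 (0.991) and ABCC1 (0.991). For COL17A1 they were TRIM52-AS1 (0.995), ELF2 (0.993) and CRACDL (0.993). With 6 points and this many genes compared, such values are a description.

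In neighbouring parts of the basement membrane and its receptors no gene passed over all tested genes in any comparison (edgeR), so the lists are given by counts at an unadjusted p under 0.05. Beside the counts for CRNN against GFP stand 2.9% of all genes lower and 1.49% higher at that level. Of 7 tested laminin chains outside the 9 genes, 2 were lower in CRNN than in GFP, LAMA5 at -0.96 (SE 0.41) and LAMA4 at -1.06 (SE 0.39), and 0 were higher. LAMA4 was low in level, at 1.25 to 3.11 CPM. LAMA5, the α5 chain of laminin-511, had 194 and 123 CPM in CRNN, 349 and 268 in GFP, with 84.4 and 184 in untreated cells. Of 11 basement membrane partners, 2 were lower in CRNN than in GFP and 1 was higher, COL4A6 at 1.07. COL7A1, the collagen of the anchoring fibrils below the hemidesmosome, had 96.2 and 49.6 CPM in CRNN against 143 and 128 in GFP (-0.89, SE 0.35). HSPG2, the proteoglycan perlecan, showed the order of ITGB4, with 49.5 and 33.4 CPM in CRNN, 79.6 and 63.6 in GFP, with 27.9 and 29.1 in untreated cells, and GFP exceeded untreated cells by 1.33 (SE 0.29, adjusted p = 0.711). HSPG2, COL7A1 and LAMA5 lie at the 94.9th, 95.6th and 97.7th percentile of GC content, and LAMA4 at the 30.5th. The part of GC content in their values was not tested.

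Among 11 tested plakins and keratins, EVPL and PPL, the plakins of the cornified envelope, were lower in CRNN than in GFP at that level, at -0.79 (SE 0.26) and -0.66 (SE 0.25). That was 2 of 11, beside 2.9% of all genes, and 0 were higher, beside 1.49%. EVPL was also higher in GFP than in untreated cells, at 0.94 (SE 0.26). EVPL and PPL lie at the 96.1st and 84.1st percentile of GC content. DSP, the plakin of desmosomes, had 397 and 465 CPM in CRNN, 301 and 626 in GFP, with 437 and 465 in untreated cells, with GFP replicate 2 above replicate 1 as for DST. MACF1, the closest relative of DST among them, had 155 and 126 CPM in CRNN, 185 and 234 in GFP, with 320.0 and 154 in untreated cells. Of the 8 other integrins, ITGA2, ITGAV, ITGB1, ITGB6 and ITGB8 were highest in untreated replicate 1, while ITGA5, ITGB5 and ITGA9 were highest in GFP replicate 1. ITGB1, the partner of ITGA3, had 364 CPM there against 93.0 to 135 in the other 5 libraries, and ITGB8 384 against 86.0 to 115. Of these 8, 3 were lower in CRNN than in untreated cells at an unadjusted p under 0.05 (ITGAV, ITGB1 and ITGB8), beside 2.96% of all genes. The same 3 were lower in GFP than in untreated cells at that level, beside 2.9% of all genes. ITGA9 was higher, beside 4.03% of all genes, but low in level, at 0.191 to 1.30 CPM. The comparisons of CRNN and of GFP with untreated cells share the untreated libraries. Between CRNN and GFP 0 of 8 passed it. Of 14 integrin adapters 3 were lower in CRNN than in untreated cells at that level, beside 2.96% of all genes. Among them was VCL, or vinculin, with 1347 CPM in untreated replicate 1 against 208 to 290.0 elsewhere. The medians for CRNN against GFP were -0.26 over the 9 members, -0.49 over the other laminin chains, -0.59 over the basement membrane partners and -0.30 over plakins and keratins, beside -0.002 over all tested genes. Tetraspanins other than CD151 had a median of 0.29, with 0 of 9 at an unadjusted p under 0.05, beside 4.39% of all genes in either direction. The 9 laminin-332 proteases had a median of -0.09, with 1 lower, beside 2.9% of all genes. This was ELANE, which was low in level, at 1.20 to 2.87 CPM.

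**Figure D4:**
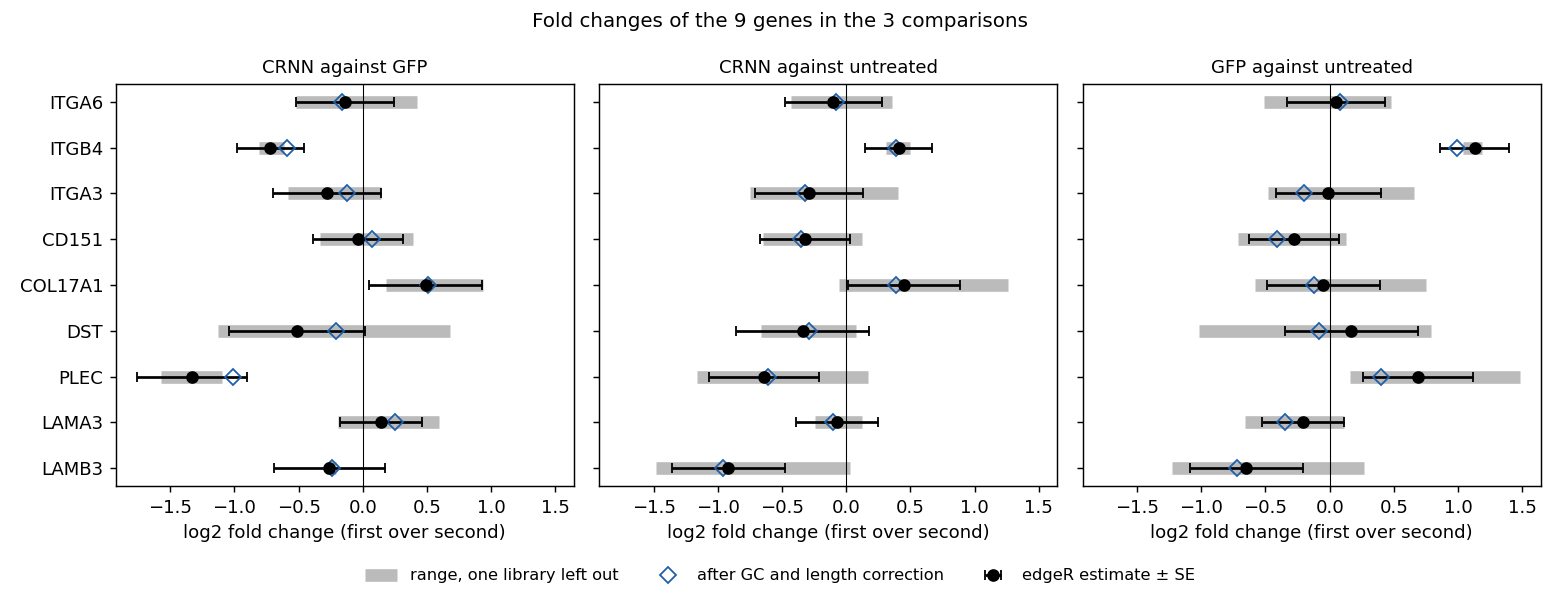
Log2 fold change of the 9 genes in the 3 comparisons (horizontal axis, first group over second), with the edgeR estimate and its SE, the value after the GC and length correction, and the range when 1 library is left out. With 1 library left out, ITGB4 keeps its side of 0 in every panel, and PLEC in every panel except CRNN against untreated. COL17A1 and LAMB3 keep theirs for CRNN against GFP only, where the range of DST spans -1.13 to 0.68.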

How the data were processed

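The authors deposited raw counts, whole reads per gene for 57820 versioned Ensembl identifiers in 6 libraries, with no normalization. The submitters' processing notes name STAR 2.6, HTSeq 0.6.1, edgeR, hg19, GRCh37 and GRCh38 without roles, and the annotation and strand setting of the counting are not given in the sources used here. Per the labels' protocols, stranded total RNA libraries were made, and all carry batch 1. Names, coordinates, exon lengths and GC content came from GENCODE 44 (GRCh38), matched by identifier without version (51996 named, 5824 not), so lengths may differ from those counted.

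Genes were kept by filterByExpr (minimum count 10, minimum total 15), leaving 16396, and all 6 libraries were fitted with edgeR 4.0.16 in R 4.3.3 (TMM, quasi-likelihood F test without covariates), so that the groups share one estimate of the spread. P-values are two-sided and adjusted over all tested genes. The SE is the log2 fold change divided by the square root of F. CPM use TMM library sizes, and means of log2 CPM a prior count of 1. The GC and length correction removed a natural-spline trend (4 degrees of freedom each) from each library. Library totals of 11817105 to 28041227 make 3 counts worth 0.115 to 0.239 CPM. Alternatives were other scalings, filters, DESeq2 1.42.0, limma-voom (limma 3.58.1), 2-group fits, a replicate block, the correction, and each library left out. The procedure was tested on simulated data with a common spread for all genes and groups and no GC or length trend. That test does not cover the differing spreads and GC trends of these libraries.

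The members and gene lists were chosen with earlier results of these data known. Named were all 9 members, CRNN, the plakins, up to 4 genes per list and comparison with the smallest unadjusted p, and the genes most alike. EPPK1 and PECAM1 had no matching identifier and are not analysed here, and 1 gene of the lists is not reported here. The p-values measure only the spread between these libraries.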

Additional observations from a re-analysis of the deposited data

How the results depend on the processing

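Of 459 refits of a member under 17 alternatives, 412 kept direction and side of the threshold, 45 changed sign, 27 of them on leaving out 1 library, and 2 passed: ITGB4 for GFP against untreated by DESeq2 (1.13) and LAMB3 for CRNN against untreated without untreated replicate 2 (-1.48). ITGB4 never changed sign. DESeq2 thus called 1 member, and the other settings with all libraries called 0.

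The number of genes called for CRNN against GFP, 3 in the fit reported, was 34 with no filter, 21 by DESeq2, 13 with only the compared groups and 1 after the GC and length correction. For CRNN against untreated, 1 as reported, it was 152 with no filter and 7 by DESeq2. For GFP against untreated, 0 as reported, it was 195 and 29. With 1 library left out these counts ran from 0 to 15, 1 to 957 and 0 to 966, and members called from 0 to 0, 0 to 1 and 0 to 0. The members' median then ran from -0.29 to -0.18, -0.30 to 0.12 and -0.49 to 0.27. The cause of these shifts was not tested.

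Sign changes with all libraries kept were small. CD151 for CRNN against GFP was 0.0022 with no filter, 0.01 by limma-voom, 0.03 with the replicate block, 0.07 after the GC and length correction and 0.09 with both. LAMA3 for CRNN against untreated was 0.01 under upper-quartile scaling. For GFP against untreated, ITGA6 was -0.01 with no filter, ITGA3 was 0.13 (upper quartile), 0.06 (library totals), 0.03 (1 CPM filter), 0.06 (limma-voom) and 0.04 (replicate block), COL17A1 was 0.01, 0.05 and 0.01 (upper quartile, limma-voom, replicate block), and DST was -0.05 (limma-voom), -0.08 (correction) and -0.15 (correction with replicate block).

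With 1 library left out, the ranges for CRNN against GFP were -0.52 to 0.42 (ITGA6), -0.58 to 0.14 (ITGA3), -0.33 to 0.39 (CD151), -1.13 to 0.68 (DST) and -0.19 to 0.59 (LAMA3). For CRNN against untreated they were -0.43 to 0.36 (ITGA6), -0.75 to 0.40 (ITGA3), -0.65 to 0.12 (CD151), -0.06 to 1.26 (COL17A1), -0.66 to 0.08 (DST), -1.16 to 0.17 (PLEC), -0.24 to 0.12 (LAMA3) and -1.48 to 0.03 (LAMB3). For GFP against untreated they were -0.51 to 0.48 (ITGA6), -0.48 to 0.66 (ITGA3), -0.71 to 0.13 (CD151), -0.58 to 0.75 (COL17A1), -1.02 to 0.79 (DST), -0.66 to 0.11 (LAMA3) and -1.23 to 0.27 (LAMB3). With a lone library in a group, it is assumed to vary like the others. The replicate numbers share only a number: the differences between replicates 1 and 2 over 11685 genes had r = 0.255 for CRNN with GFP, -0.0685 for CRNN with untreated and 0.193 for GFP with untreated. The replicate block changed no call among the members. The ratio correction was chosen after the data were seen.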
